A study of Cucumis sativus with 4 samples.

Results

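The steady abundant genes were 148 cucumber genes (Cucumis sativus) that, by the deposited values, kept nearly the same level in all 4 fruit libraries of the study. They were chosen by the deposited values themselves: each reached at least 100 CPM in every library, and its highest library was at most 25% above its lowest. CPM is the number of reads of a gene per 1000000 reads assigned to the listed genes of its library, so it is a share and not an amount per cell. The 148 genes were 0.861% of the 17180 genes listed and 11.9% of the 1245 genes that met the level condition alone. Their levels, their spread and their difference between the lines all entered the choice, so these values are given below as descriptions, without a test. Under the other scalings described below, the 25% limit was met by 13 (median of ratios), 15 (TMM) and 106 (quantile) of the 148 genes.

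The study compared young fruits of OX-29 with those of the wild type (WT), harvested 4 days before anthesis, with 2 libraries per line. WT was inbred line R1407, which bears long fruits. OX-29 was R1407 transformed with the coding sequence of CsFUL1, which encodes a MADS-box transcription factor of the FRUITFULL group, under the cauliflower mosaic virus 35S promoter, and it bears short fruits. That promoter is active in most plant tissues, OX-29 was the one transformed line sampled, and the labels do not say how many plants or fruits a library holds.

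As background, the young cucumber fruit is an ovary that lies below the flower, and before anthesis it grows mainly by cell division. FRUITFULL genes act in fruit patterning and growth in several plants. Messenger RNA levels are often read against genes whose level is thought not to change, commonly called housekeeping or reference genes, such as those for actin, tubulin, ubiquitin or translation elongation factors. Whether any of those genes is among the 148 is not analysed here, because no table used here pairs the identifiers with names or functions. The genes are therefore given by identifier, whose first digit is the chromosome in the cucumber naming scheme. The same limit applies to CsFUL1, whose level would check the labels, and to the markers of fruit tissue.

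Sequencing depth was high relative to the width of the limit. The libraries held 16326412 to 19824797 reads on listed genes, and 1 read was worth 0.0504 to 0.0613 CPM. The library with the fewest reads for a member still held 1680 to 7536 of them. Counting error alone is then 1.152% to 2.44% of a member's level, small beside the 25% that the limit allows, although reads without molecular identifiers are not independent molecules.

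The steady genes sat in the lower part of the abundant range. Their mean level over the 4 libraries had a median of 159 CPM and ran from 107 to 497 CPM, whereas the 1245 abundant genes had a median of 212 CPM and reached 4823 CPM. A mean below 200 CPM was found for 113 of the 148 members (76.4%) and for 555 of the 1245 abundant genes (44.6%). Part of this difference follows from the level condition, which a gene with a mean near 100 CPM meets only if its libraries are close. Only 10 members reached a mean of 300 CPM. In OX-29 replicate 1 the members ran from 102 to 473 CPM with a median of 158 CPM, and in OX-29 replicate 2 from 103 to 462 CPM with a median of 160 CPM. In WT replicate 1 they ran from 102 to 480 CPM with a median of 155 CPM, and in WT replicate 2 from 102 to 574 CPM with a median of 152 CPM. Together they took 2.65% and 2.68% of the reads of the OX-29 libraries and 2.61% and 2.64% of the reads of the WT libraries. The whole abundant class took a larger share in OX-29, with 39.1% and 39.5% of reads against 33.2% and 36.0% in WT.

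**Figure D1:**
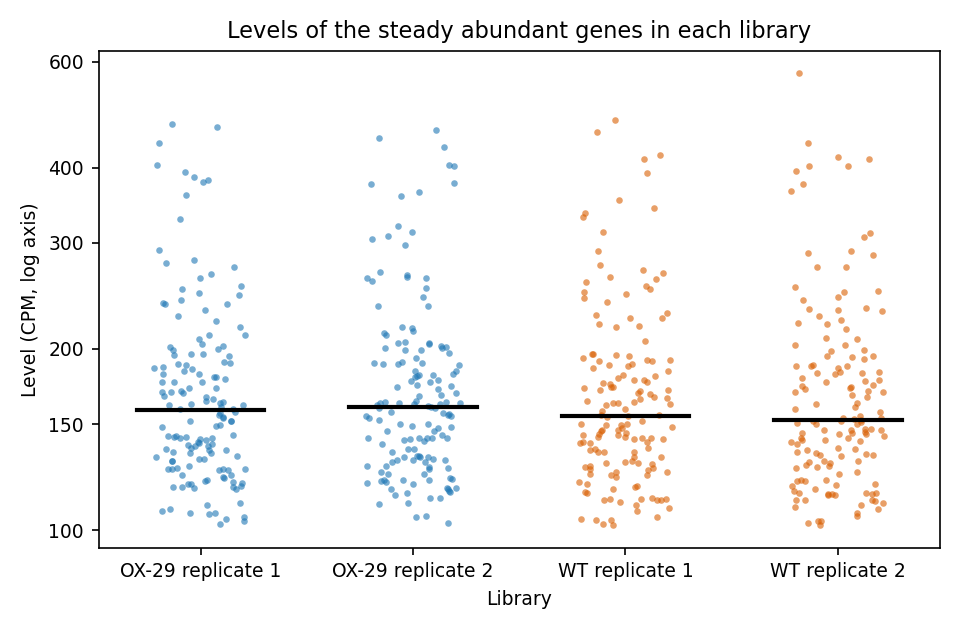
Levels of the 148 steady abundant genes in CPM on a log axis, with 1 point per gene in each of the 4 libraries and a black bar at the median. The medians lie between 152 and 160 CPM.

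The 4 members with the highest mean level were Csa7G397040, Csa4G649590, Csa4G664590 and Csa7G396400. Csa7G397040 stood at 473 and 462 CPM in the OX-29 libraries and at 480 and 574 CPM in the WT libraries. WT replicate 2 was its highest library, and its ratio of highest to lowest library was 1.24, close to the limit. Csa4G649590 stood at 440 and 405 CPM in OX-29 and at 458 and 439 CPM in WT, so the lines overlapped. Csa4G664590 stood at 468 and 447 CPM in OX-29 and at 420 and 376 CPM in WT, with both OX-29 libraries above both WT libraries. Csa7G396400 stood at 394 and 433 CPM in OX-29 and at 413 and 416 CPM in WT. Its WT libraries lay between its OX-29 libraries, and the line means were 413 ± 27.8 CPM in OX-29 and 415 ± 2.50 CPM in WT (SD, n = 2).

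On deposited CPM, the 4 members with the smallest spread each had a ratio of highest to lowest library of 1.05. Csa3G113340 had the smallest, with 178 and 176 CPM in OX-29 and 177 and 170 CPM in WT. Csa5G469040 stood at 263 and 263 CPM in OX-29 and at 259 and 250 CPM in WT. Csa7G051440 stood at 184 and 182 CPM in OX-29 and at 191 and 187 CPM in WT, with WT slightly above OX-29 in every library. In Csa4G046720 the values were 134 and 130 CPM in OX-29 and 135 and 128 CPM in WT, so both lines covered nearly the same range. Over all 148 members the ratio had a median of 1.18, while over the abundant genes it had a median of 1.70 and a maximum of 37.0.

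**Figure D2:**
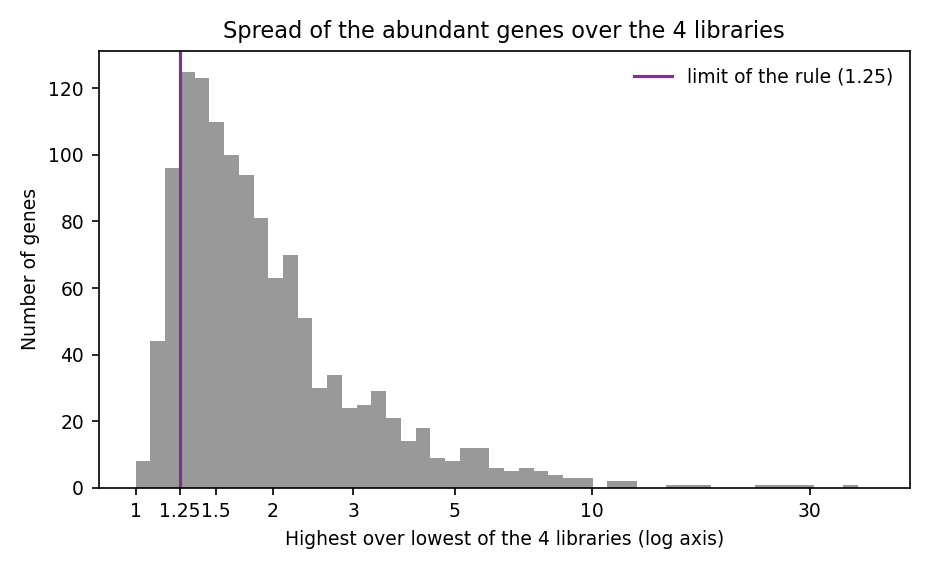
Number of abundant genes (1245 in all) by the ratio of their highest to their lowest library, on a log axis, with the limit of the rule (25% above the lowest) as a vertical line. The 148 steady genes lie to the left of the line, in the lower tail of a distribution whose median is 1.70.

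Genes lay close to both sides of each limit. Just inside the limit on the ratio, Csa4G011750 stood at 201 and 161 CPM in OX-29 and at 181 and 183 CPM in WT, so its highest and its lowest library were both of OX-29. Csa7G212100, also just inside, stood at 138 and 142 CPM in OX-29 and at 143 and 115 CPM in WT, where WT replicate 2 was the low library. Just outside were Csa4G268010, with 191 and 185 CPM in OX-29 and 232 and 191 CPM in WT, and Csa1G046100, with 178 and 197 CPM in OX-29 and 158 and 193 CPM in WT. In both of these the libraries of the lines overlapped. At the level condition, Csa5G633180 was inside with 118 and 115 CPM in OX-29 and 102 and 102 CPM in WT, and so was Csa7G325180 with 102 and 110 CPM in OX-29 and 104 and 112 CPM in WT. Csa7G065120 and Csa2G248670 were outside by a single library, which held 99.8 CPM for the former (WT replicate 2) and 99.6 CPM for the latter (OX-29 replicate 1).

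Differences between the WT replicates removed more genes than differences between the OX-29 replicates. Of the 1245 abundant genes, 1044 stayed within 25% between the OX-29 libraries, 728 between the WT libraries and 640 in both pairs. Of those 640, 241 also had line means within 25% of each other, and 148 met the limit over all 4 libraries. The median ratio between replicates was 1.09 in OX-29 and 1.20 in WT over the abundant genes, and 1.06 and 1.09 over the members. Leaving a library out relaxes the rule, and the number of steady genes then became 222 without OX-29 replicate 1, 209 without OX-29 replicate 2, 326 without WT replicate 1 and 350 without WT replicate 2.

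Within the limit, small differences between the lines were left. On log2(CPM + 0.5), OX-29 minus WT ran from -0.24 to 0.25 over the members with a median of 0.028, and 86 members had the higher mean in OX-29 and 62 in WT. The abundant genes ran from -3.60 to 4.94 with a median of 0.16. The libraries of the lines overlapped in 84 members. They did not overlap in 64, with OX-29 above in 41 and below in 23, against 81.7% without overlap among the 16982 genes tested. The all-gene limma fit called 0 of the 148 members, and 0 had an unadjusted p under 0.05, against 57.0% of tested genes called (Benjamini-Hochberg adjusted p under 0.05). Nothing follows from these counts, since the rule kept out genes with a larger difference.

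**Figure D3:**
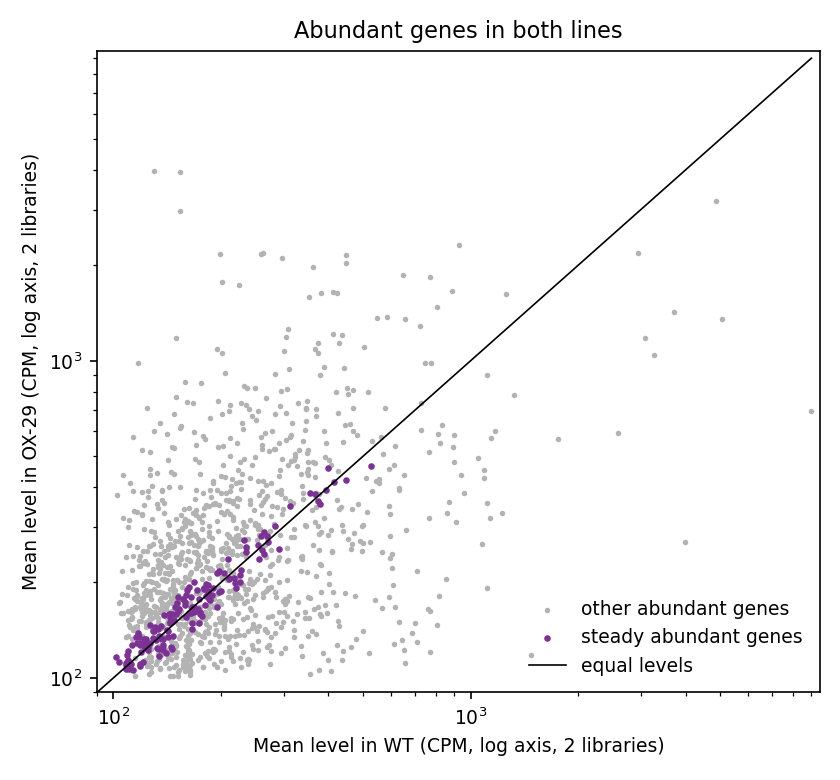
Mean level of the 1245 abundant genes in OX-29 against WT, in CPM on log axes, with the steady genes in purple and the line of equal levels in black. The steady gene with the highest mean level, Csa7G397040, lies at 527 CPM in WT and 467 CPM in OX-29. The abundant genes around the steady genes scatter to both sides of the line.

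The members tilted most towards OX-29 were Csa1G560800, Csa1G021900 and Csa2G379180. Csa1G560800 stood at 204 and 197 CPM in OX-29 and at 171 and 166 CPM in WT, which is 0.25 ± 0.16 (SE) on the log2 scale. Csa1G021900 stood at 194 and 193 CPM in OX-29 and at 169 and 157 CPM in WT. Csa2G379180 stood at 180 and 180 CPM in OX-29 and at 150 and 153 CPM in WT. In these 3 genes the lower OX-29 library was above the higher WT library. Tilted most towards WT was Csa4G107490, with 126 and 121 CPM in OX-29 and 145 and 146 CPM in WT, which is -0.24 ± 0.16 (SE) on the log2 scale. Csa6G538630 followed, with 121 and 119 CPM in OX-29 and 139 and 142 CPM in WT. Csa7G186170 stood at 142 and 155 CPM in OX-29 and at 173 and 175 CPM in WT, again with no overlap.

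Which genes counted as steady depended on how the libraries were scaled. Deposited CPM makes the total of each library equal, and on that scale the median tested gene was lower in OX-29, with a log2 fold change of -0.38. The steady genes therefore lay 0.41 above the median gene on the log2 scale. The 1245 abundant genes had a median of 0.16, so the members lay below that class. Median-of-ratios scaling, which sets 1 factor per library so that the typical gene is level, moved the median gene to -0.028. On that scale all 148 members had a higher mean in OX-29, with log2 fold changes of 0.13 to 0.62 and a median of 0.40. The 1245 abundant genes had a median of 0.53 on that scale, so a rise in OX-29 was not particular to the members. The median level of the members was then 178 and 184 in the OX-29 libraries and 134 and 136 in the WT libraries, as reads per 1000000 of a library of average depth. TMM scaling, another method with 1 factor per library, gave a median of 0.38 and likewise a higher OX-29 mean in all 148. Quantile normalization, which forces the libraries to 1 distribution of values, gave a median of -0.064, with 54 of the 148 higher in OX-29. No outside standard such as a spike-in was analysed here, and which scale is nearer to amounts per cell was not tested. In bulk fruit samples, fewer cells of a type and less RNA per cell cannot be told apart.

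Calls among the members followed the scale. After median-of-ratios scaling limma called 35 members higher (23.6%) and 0 lower in OX-29, against 27.3% and 29.2% of all tested genes (Benjamini-Hochberg adjusted p under 0.05). On the recovered whole reads, edgeR with TMM factors called 19 members higher (12.8%) and 0 lower. Over the 16982 tested genes it called 4423 higher (26.0%) and 4967 lower. DESeq2, which uses median-of-ratios factors, called 39 members higher (26.4%) and 0 lower, against 4612 tested genes higher (27.2%) and 5047 lower. The genes were chosen on the same libraries to lie close to 0 on deposited CPM, so the direction of these calls is set by the change of scale and supports nothing further.

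**Figure D4:**
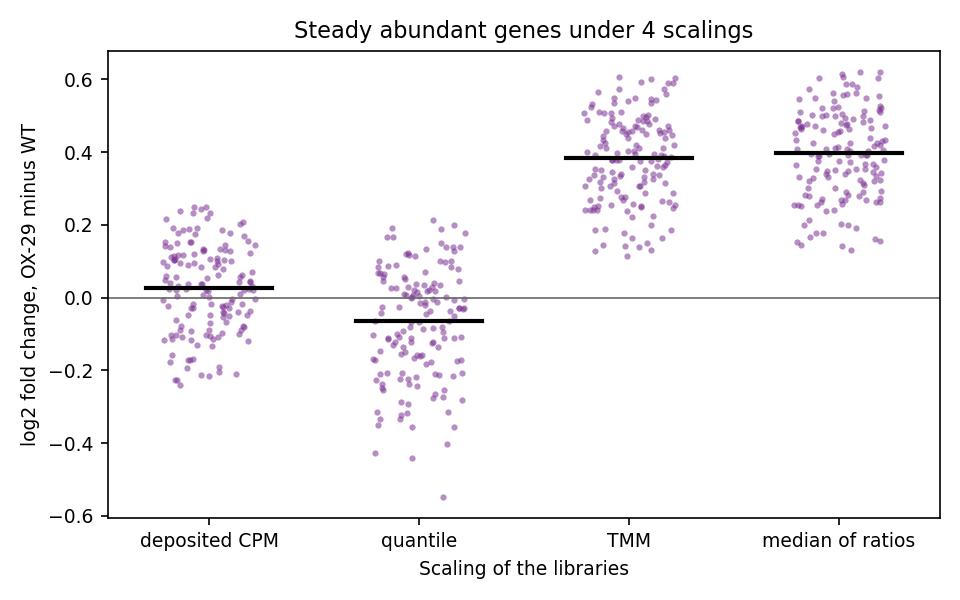
log2 fold change of each of the 148 steady genes, OX-29 minus WT, on deposited CPM and after quantile, TMM and median-of-ratios scaling, with a black bar at the median and a line at 0. The medians are 0.028, -0.064, 0.38 and 0.40, and under the last 2 scalings every point lies above 0.

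Applying the same 2 conditions to the rescaled values chose largely other genes after median-of-ratios and TMM scaling, and largely the same genes after quantile normalization. After median-of-ratios scaling 94 genes met them, of which 12 were among the 148, that is 8.11% of the members and 12.8% of the new list. On deposited CPM those 94 genes had a median log2 fold change of -0.36. After TMM scaling 96 genes met the conditions, and 14 were shared (9.46% of the members and 14.6% of the new list). After quantile normalization there were 161, and 105 were shared (70.9% and 65.2%).

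The 12 members that met the rule on deposited CPM, after median-of-ratios scaling and after TMM scaling were all lower in OX-29 on deposited CPM, with log2 fold changes of -0.24 to -0.11. A gene can satisfy both kinds of scale only if it lies between them, so this sign comes from the conditions. Csa6G538630, described above, Csa3G063650 and Csa3G110020 also met the rule after quantile normalization and were named after their values had been seen. Csa3G063650 stood at 152 and 161 CPM in OX-29 and at 177 and 176 CPM in WT as deposited, and at 171 and 184 in OX-29 and 153 and 157 in WT after median-of-ratios scaling. Csa3G110020 stood at 118 and 127 CPM in OX-29 and at 142 and 134 CPM in WT as deposited, and at 133 and 146 in OX-29 and 122 and 120 in WT after median-of-ratios scaling. In both genes the order of the lines turned with the scale while the spread stayed within 25%.

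A wider set of genes was chosen on fewer libraries. Genes were chosen on 1 library of each line by both conditions, and the ratio between the other 2 libraries was then measured. Choosing on replicate 1 of each line gave 472 genes, and 246 of them (52.1%) stayed within 25% between the replicate 2 libraries, compared with 188 of the 954 other genes at 100 CPM or more in the choosing libraries (19.7%). With each of the 4 combinations of an OX-29 and a WT library, 51.3% to 55.3% of the chosen genes and 17.4% to 19.7% of the others stayed within the limit. The median ratio in the libraries not used was 1.213 to 1.245 for the chosen genes and 1.70 to 1.77 for the others. After median-of-ratios scaling the shares were 44.2% to 48.3% and 13.5% to 16.1%. On deposited CPM the chosen genes held all 148 members in each combination, whereas the other genes held no member. The members stayed within the limit by the rule. They were thus 148 of the 246 genes within it after choosing on replicate 1 of each line. After median-of-ratios scaling, 94 genes met both conditions in all 4 libraries. They were likewise among the chosen genes and within the limit by the rule. Part of the gap between the shares is therefore fixed in advance on both scales, and the gap lends no support to the steadiness of the members. Genes are not independent replicates, so no test was made.

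On deposited CPM, steadiness was less common at the highest levels. A gene with a mean near 100 CPM can reach 100 CPM everywhere only if its libraries are close, so the share was taken over all listed genes by mean level, with the ratio as the only condition. It was 4.16% of 4328 genes at 10 to 30 CPM, 7.65% of 5552 at 30 to 100 CPM, 8.05% of 1093 at 100 to 150 CPM and 9.63% of 519 at 150 to 200 CPM. Above that it was 4.88% of 512 genes at 200 to 300 CPM and 3.76% of 266 at 300 to 500 CPM. At 500 CPM or more it was 0 of 149, which allows a share of up to 2.01% by the limit of 3 counts and up to 2.45% by the exact 95% interval, both for counting error only. The WT replicates stayed within 25% of each other in 55.9% of genes at 150 to 200 CPM and in 38.9% at 500 CPM or more, and the OX-29 replicates in 79.6% and 63.8%. The median absolute log2 fold change between the lines was 0.73 and 1.51 in the same classes, so both spreads were wider in the top class. Among the 1245 abundant genes the median log2 fold change, OX-29 minus WT, also rose with level on deposited CPM. From 0.013 at 100 to 150 CPM it reached 0.27 at 200 to 300 CPM and 0.86 at 500 CPM or more. How the share runs with level on the other scales was not tested.

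**Figure D5:**
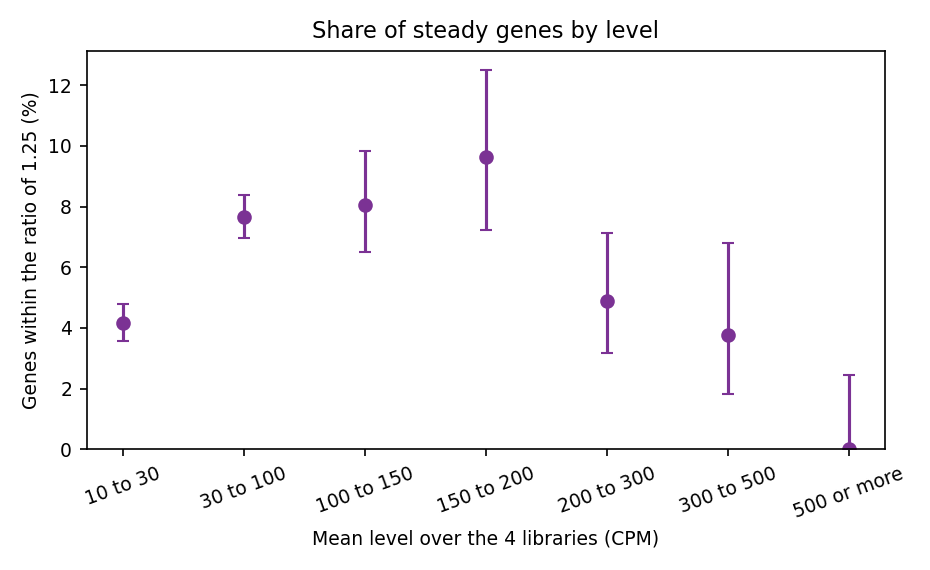
Percent of all listed genes in each class of mean level (deposited CPM) whose highest library is at most 25% above the lowest, with exact 95% binomial intervals that cover counting of genes only. The share is highest at 150 to 200 CPM, at 9.63%, and is 0 at 500 CPM or more.

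The steady genes were spread over the 7 chromosomes, a property that the rule did not use. By identifier, 28 lay on chromosome 3, 26 on chromosome 4, 21 on chromosome 2, 21 on chromosome 6, 18 on chromosome 5, 18 on chromosome 7 and 16 on chromosome 1. As a share of the abundant genes of the chromosome, they made up 9.59% on chromosome 6 (exact 95% interval 6.03% to 14.3%) to 16.8% on chromosome 4 (11.3% to 23.6%), and the intervals of all 7 chromosomes overlapped. None of the 3 abundant unplaced genes was a member. No 2 members stood next to each other in identifier order among the listed genes.

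The genes beside the steady genes were called about as often as the tested genes as a whole. Of 274 tested genes next to a member in identifier order, with the abundant genes left out, 46 were higher and 113 lower in OX-29 by limma, which is 58.0% called, against 57.0% of all tested genes. The neighbours were thus picked partly by their level, while the tested genes as a whole include the abundant genes. Beside the other abundant genes, with the abundant genes again left out, 57.2% of 1915 were called. The median log2 fold change was -0.42 beside the members, -0.37 beside the other abundant genes and -0.38 over all tested genes, and the median absolute value was 0.98, 0.95 and 0.93. After median-of-ratios scaling 66 of the 274 were higher and 83 lower, or 54.4%, against 56.4% of all tested genes. These shares lie near the background, and no difference from it was tested.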

How the data were processed

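Polyadenylated RNA of 2 OX-29 and 2 WT fruit samples was sequenced as paired-end Illumina reads, per the labels' protocols. TopHat and HTSeq are named in the submitters' processing notes. Versions, settings, genome build, annotation, use of strand and the handling of reads from near-identical copies are, in the sources used here, not given, so members of gene families and overlapping genes are uncertain in level. The authors deposited CPM values for 17180 genes, and each library's column sums to 1000000. All values equal a whole number times the smallest value above 0 in that library (100% within a tolerance of 0.001 reads), so whole reads were recovered by division. Per-sample columns left unused numbered 0.

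The 148 members, the limits and the gene lists were chosen with earlier results of these data known. The lists needed gene descriptions, and 0 identifiers matched the 23999 genes of the RefSeq table at hand, so no list was formed. Named genes were the 4 members of highest mean, the 4 of smallest ratio, the 3 tilted most to either line, and 2 genes on each side of each limit. Runs of neighbouring members, also to be named, numbered 0.

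limma 3.58.1 in R 4.3.3 (trend, line as the only term) was fitted to log2(CPM + 0.5) for 16982 genes whose mean was 1 CPM or more. It was also run on simulated data with few changed genes, as many raised as lowered. Those data do not bear on the choice of scale. The SE and p-values of limma reflect only how far libraries of the same line differ. The variance of each gene is drawn towards a trend over all tested genes. Csa2G379180, with replicate ratios of 1.00 in OX-29 and 1.02 in WT, therefore still has an SE of 0.16. Fold changes on log2(CPM + 0.5) are slightly understated for low genes. The alternatives were other limits, scalings, pseudocounts, filters and robust variance, a replicate block, each library left out, and edgeR 4.0.16 and DESeq2 1.42.0 on the recovered reads. The choice on 1 library per line, the neighbours, the classes of level and TMM scaling of the fold changes were added after the data had been seen.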

Additional observations from a re-analysis of the deposited data

How the results depend on the processing

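The number of steady abundant genes (148, or 11.9% of the abundant genes) moved with each limit, while the share stayed near 11.9% at 50 CPM. There were 383 genes (11.7%) at 50 CPM, 25 (8.22%) at 200 CPM, 48 (3.86%) with at most 15% between highest and lowest library and 456 (36.6%) with at most 50%. There were 94 (8.13%) after median-of-ratios scaling and 96 (8.25%) after TMM scaling. With any 1 library left out there were 209 to 350 genes, or 16.3% to 25.5%. The median log2 fold change of the members (0.028) was 0.40 with median-of-ratios scaling, 0.38 with TMM scaling and -0.064 with quantile normalization, and 0.015 to 0.042 with a library left out. The number of members called by limma (0) became 35 with median-of-ratios scaling, and was 19 with edgeR and 39 with DESeq2. It was 0 under the other 11 alternatives, among them the 4 that leave out a library (0 to 0). Calls over all genes (9677) ranged from 5674 to 9229 with a library left out, where OX-29 replicate 1 gave the low end and OX-29 replicate 2 gave 5873. The shares of genes chosen on 1 library per line that stayed within the limit (52.1%) were 45.7%, 47.3% and 44.2% in 3 of the median-of-ratios combinations. On each scale these shares include genes that stay within the limit by the rule. A replicate block gave 9420 calls over all genes and 0 among the members, and changed no call on a member. Across genes, the difference between replicates in OX-29 and that in WT had a correlation of -0.0201, so the numbers were not taken as pairs. The causes of these changes were not tested, beyond what each limit or scaling does by construction. Counting error was 1.152% to 2.44% of a member's level, and Csa4G011750 inside the limit and Csa4G268010 outside it lay closer to it than that, so depth limits which side such genes fall on.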
